A study of Rattus norvegicus with 36 samples.

Results

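Total RNA of rat skeletal muscle collected 6 h after a bout of resisted contractions was set against total RNA collected 1 h after it. The samples were chosen by their titles, and they comprise 12 of the 36 arrays of the series and 6 of its 18 sample numbers. At 6 h there were 8 arrays of 4 numbers, and at 1 h 4 arrays of 2 numbers, each number with 2 arrays that were averaged to 1 value. The labels give the species, Rattus norvegicus, and the muscle as "ta", but no strain, age or sex, and every animal in both groups had been exercised. Total RNA of uncontracted muscle was not analysed here, so a difference between 6 h and 1 h can come from a change at either time. The labels do not say whether numbers are separate animals, so a p-value reflects only the scatter of these samples, part of which may be technical.

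A working muscle answers contraction in waves. Immediate early genes such as Fos, Egr1 and Nr4a1 are switched on within minutes from factors already present in the nucleus, and their short-lived messengers decay soon afterwards. Later come transcripts of chaperones, of receptors and ligands for growth signals, of fuel handling and of the connective tissue around the fibres. Acetylcholine receptor subunits and embryonic myosin are kept low in innervated adult fibres and rise when nerve input or fibre integrity is lost.

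Gene levels are given as the deposited array signal (arbitrary units, linear scale), as the mean of the 2 arrays of a number on the log2 scale. The floor, to which all lower signals were raised, was 129.5, the 40th percentile over all arrays. A bulk signal does not separate fewer cells of a type from less RNA per cell. Of the 8 fast fibre genes looked at, 7 were above the floor on all 12 arrays, which marks the tissue as skeletal muscle. Among them were Myh4 (20080.2 to 42942), Pvalb (18394 to 30385) and Tnni2 (13929 to 24969.6). The creatine kinase gene Ckm was above the floor on 7 of the 12. These genes cannot tell which muscle was taken.

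The libraries labelled total RNA 6 h numbers 3 and 4 stood apart from the other total RNA. Over the 6707 probe sets tested, 6 h numbers 1 and 2 correlated at 0.96 with the 1 h total RNA numbers. Number 3 correlated with them at 0.82 and 0.83 and number 4 at 0.92. With exercised polysomal RNA (RNA carrying ribosomes) number 3 correlated at 0.82 to 0.88 and number 4 at 0.92 to 0.95. These are correlations across probe sets, which are not independent. In number 3 the beta-actin control gave 9.01 and 11.5 times as much signal at its 3′ as at its 5′ end, against 1.01 to 1.62 on the other 10 total RNA arrays. For the GAPDH control the ratio was 9.73 and 11.4, against 0.530 to 1.09.

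At 1 h, 386 probe sets were called lower in polysomal than in total RNA. The median log2 signal of those 386 was 7.83 and 7.77 in 6 h total numbers 3 and 4, and 9.74 and 9.64 in 6 h total numbers 1 and 2. It was 7.86 to 8.57 in the 12 polysomal numbers. For the 191 called higher in polysomal RNA at 1 h the medians were 10.54 and 10.36 in 6 h numbers 3 and 4, against 9.91 and 9.76 in 6 h numbers 1 and 2. Over the 12 polysomal numbers these medians were 10.38 to 11.16. Numbers 3 and 4 were thus just below the polysomal range for the 386, and for the 191 number 3 was within it and number 4 just below it. The part of this in any result below was not tested. Values of numbers 1 and 2 and of numbers 3 and 4 apart are given beside those of all 4.

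**Figure D1:**
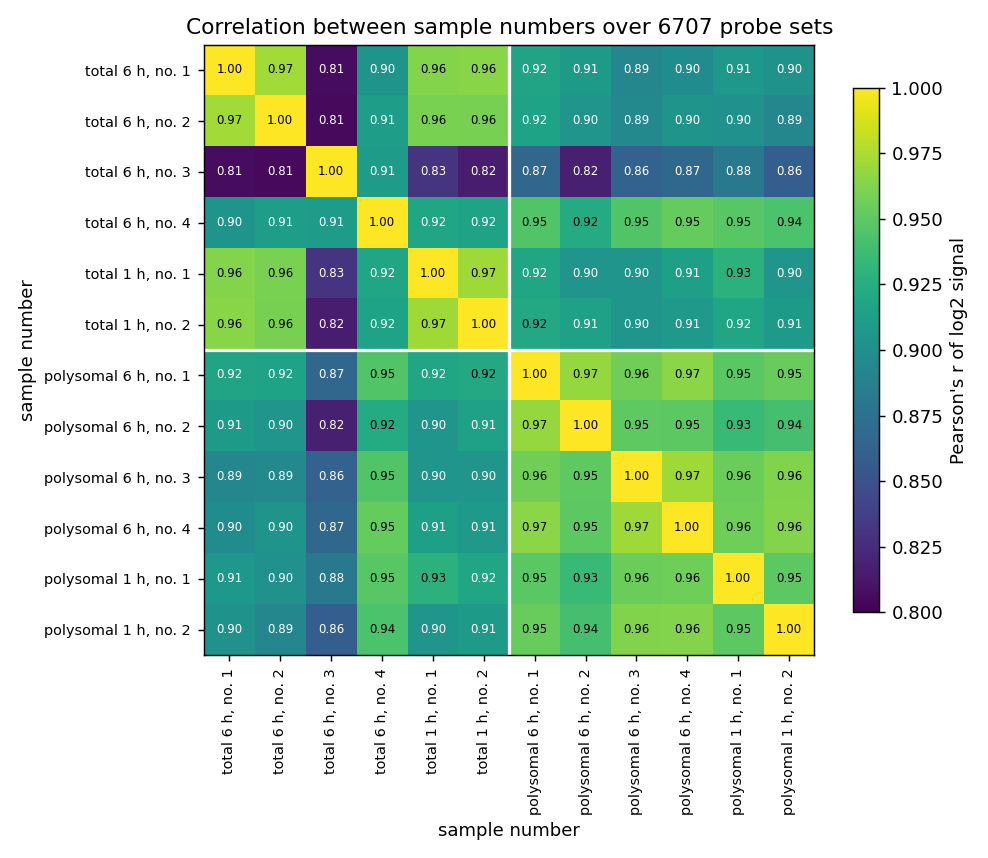
Pearson's r of log2 signal over 6707 probe sets between the 12 numbers of exercised muscle, total RNA (first 6) and polysomal RNA (last 6), with 6 h before 1 h in each. Total RNA 6 h number 3 is at 0.81 to 0.83 with the other total RNA numbers but for number 4, and number 4 is at 0.92 to 0.95 with polysomal RNA.

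Few probe sets separated 6 h from 1 h beyond the spread between samples, and those that did were all lower at 6 h. With limma, 4 of 6707 probe sets passed an adjusted p of 0.05, 0.0596 percent, with 0 higher and 4 lower, and 517 had an unadjusted p under 0.05. They were the probe set of Chrna1, the alpha subunit of the muscle acetylcholine receptor, 2 of the 5 probe sets of Myh3, the embryonic myosin heavy chain, and 1 probe set without a gene name, D25233UTR#1_at. By the brightest probe set of each gene, 1 of 3903 genes passed (0.0256 percent), Chrna1.

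Chrna1 fell 11.8-fold. Its signals were 690.0, 771, 552 and 401 in 6 h numbers 1 to 4, against 2786 and 17114 in 1 h numbers 1 and 2. The log2 difference was -3.56 (SE 0.54, adjusted p = 0.0333 by limma). All 6 h numbers lay below both 1 h numbers, and the 1 h numbers differed from each other by more than the 6 h numbers did. The 12 polysomal numbers, uncontracted muscle included, held 398 to 872, so the high values were those of total RNA at 1 h. The call rests on single libraries: without 1 h number 2 the difference was -2.25 (adjusted p = 0.408), without 6 h number 2, 3 or 4 the adjusted p was 0.0541 to 0.139, and without 6 h numbers 3 and 4 together the difference was -3.24 (adjusted p = 0.0605).

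Chrnd, the delta subunit, had 465, 417, 497 and 266 at 6 h, against 856 and 4469 at 1 h. Here too no 6 h number reached a 1 h number and 1 h number 2 was the high one, but the difference of -2.29 (SE 0.50) did not pass (adjusted p = 0.239). The beta subunit Chrnb1 had 2075, 1434, 968 and 638 at 6 h, against 1582 and 2389 at 1 h, and its groups overlapped. The gamma subunit of the fetal receptor, Chrng, was at -0.24 (SE 0.28) and the epsilon subunit of the adult receptor, Chrne, at -0.83 (SE 0.51), neither passing. The 5 subunits thus ran from -3.56 to -0.24 on the log2 scale, all below 0, with only Chrna1 past the threshold.

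The promoters of Chrna1, Chrnd and Chrng are shown because the subunits with the largest and the smallest difference can be set side by side. Each is 300 bases, from 250 before to 50 after the gene's start, 5′ to 3′ on the gene's strand, from RefSeq (GRCr8). Capitals mark the E box, CANNTG, the core site of myogenic factors such as myogenin, which reads the same on both strands. The 3 promoters matched by symbol, and no 2 boxes overlap.
Chrna1, chr3:78877304-78877603, minus strand: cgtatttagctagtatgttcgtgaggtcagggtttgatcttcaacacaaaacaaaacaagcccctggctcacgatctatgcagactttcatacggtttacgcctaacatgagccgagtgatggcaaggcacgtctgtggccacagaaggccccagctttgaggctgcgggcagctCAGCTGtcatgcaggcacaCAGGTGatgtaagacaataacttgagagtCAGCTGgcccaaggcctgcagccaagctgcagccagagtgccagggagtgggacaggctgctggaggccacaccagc
Chrnd, chr9:95310066-95310365, plus strand: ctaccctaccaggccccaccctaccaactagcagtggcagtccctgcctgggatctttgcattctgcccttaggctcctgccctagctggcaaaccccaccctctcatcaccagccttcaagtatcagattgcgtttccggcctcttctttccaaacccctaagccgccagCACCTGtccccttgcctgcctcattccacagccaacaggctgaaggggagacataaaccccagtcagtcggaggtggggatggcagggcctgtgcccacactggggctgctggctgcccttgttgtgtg
Chrng, chr9:95325734-95326033, plus strand: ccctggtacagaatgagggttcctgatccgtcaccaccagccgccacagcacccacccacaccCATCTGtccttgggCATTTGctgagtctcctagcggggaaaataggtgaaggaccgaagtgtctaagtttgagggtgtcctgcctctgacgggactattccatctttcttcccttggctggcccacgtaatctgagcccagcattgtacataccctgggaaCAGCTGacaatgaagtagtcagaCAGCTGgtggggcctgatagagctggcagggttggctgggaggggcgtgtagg
Chrna1 had 3 E boxes, at -75, -56 and -27 from the start of the gene, Chrnd had 1 at -79, and Chrng had 4 between -187 and -3. Of 33469 RefSeq promoters, 72.1 percent held at least 1 E box, 16.6 percent 3 or more and 5.79 percent 4 or more. The number of boxes did not follow the size of the difference among these 3 genes, and a match is not a bound site. Myogenin itself (Myog) had 1265, 2253, 598 and 1516 at 6 h, against 1142 and 3068 at 1 h, with the groups overlapping.

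For Myh3, probe set M12098_s_at fell 5.34-fold. It had 644, 462, 419 and 389 at 6 h, against 1539 and 4076 at 1 h (log2 difference -2.42, SE 0.40, adjusted p = 0.0444 by limma). Probe set K03467_s_at had 191, 206 and, in numbers 3 and 4, the floor at 6 h, against 380.3 and 947 at 1 h (log2 difference -1.90, SE 0.31, adjusted p = 0.0444). Again the groups did not overlap and 1 h number 2 was the high one. The brightest Myh3 probe set, X04267_at, had 3728, 3443, 10703 and 4406 at 6 h, against 7414 and 12272 at 1 h, and did not pass (-0.94, SE 0.38, adjusted p = 0.597). Of the 5 probe sets 4 were below 0, so the size of the Myh3 difference depends on which is read. Without 6 h numbers 3 and 4 both calls were lost (adjusted p = 0.0831 for M12098_s_at and 0.0702 for K03467_s_at), as they were without 1 h number 2 (0.770 and 0.629) and without any 1 of 6 h numbers 2 to 4. Both calls were also lost with the floor at the 20th percentile (adjusted p = 0.205 for M12098_s_at and 0.227 for K03467_s_at). The same held with no floor (0.125 and 0.188), the replicate block (0.156 and 0.0721) and only the 6 total RNA numbers (0.942 each). With the floor at the 60th percentile only the K03467_s_at call was lost (0.232, difference -0.92). Without the filter on dim probe sets only the M12098_s_at call was lost (0.0613). Cardiac troponin T (Tnnt2), which fetal and regenerating fibres also make, had 171, 191, 203 and 211 at 6 h, against 239 and 401 at 1 h, and did not pass (-0.68, SE 0.24, adjusted p = 0.553).

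The unnamed probe set D25233UTR#1_at fell 2.08-fold. It had 169, 173, 152 and, in number 4, the floor at 6 h, against 286 and 360.4 at 1 h (log2 difference -1.05, SE 0.14, adjusted p = 0.0166 by limma). It kept its call without 6 h numbers 3 and 4 (-0.91, adjusted p = 0.00508), the only 1 of the 4 that did, and lost it without 1 h number 2 (adjusted p = 0.408), with the floor at the 20th percentile (0.445), with no floor (0.488) and with only the 6 total RNA numbers (0.942). In the list of 20 myogenic and denervation-responsive genes tested, 1 passed, Chrna1. The list median was -0.44, against 0.06 over all genes. It was -0.15 in numbers 1 and 2, -0.40 in numbers 3 and 4 and 0.33 in polysomal RNA. In total RNA 4 members had every 6 h number below both 1 h numbers (Chrna1, Chrnd, Tnnt2 and Mef2d). Over all genes that held for 5.66 percent, and the opposite, every 6 h number above, for 8.1 percent. Those shares are the background for each list that follows.

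**Figure D2:**
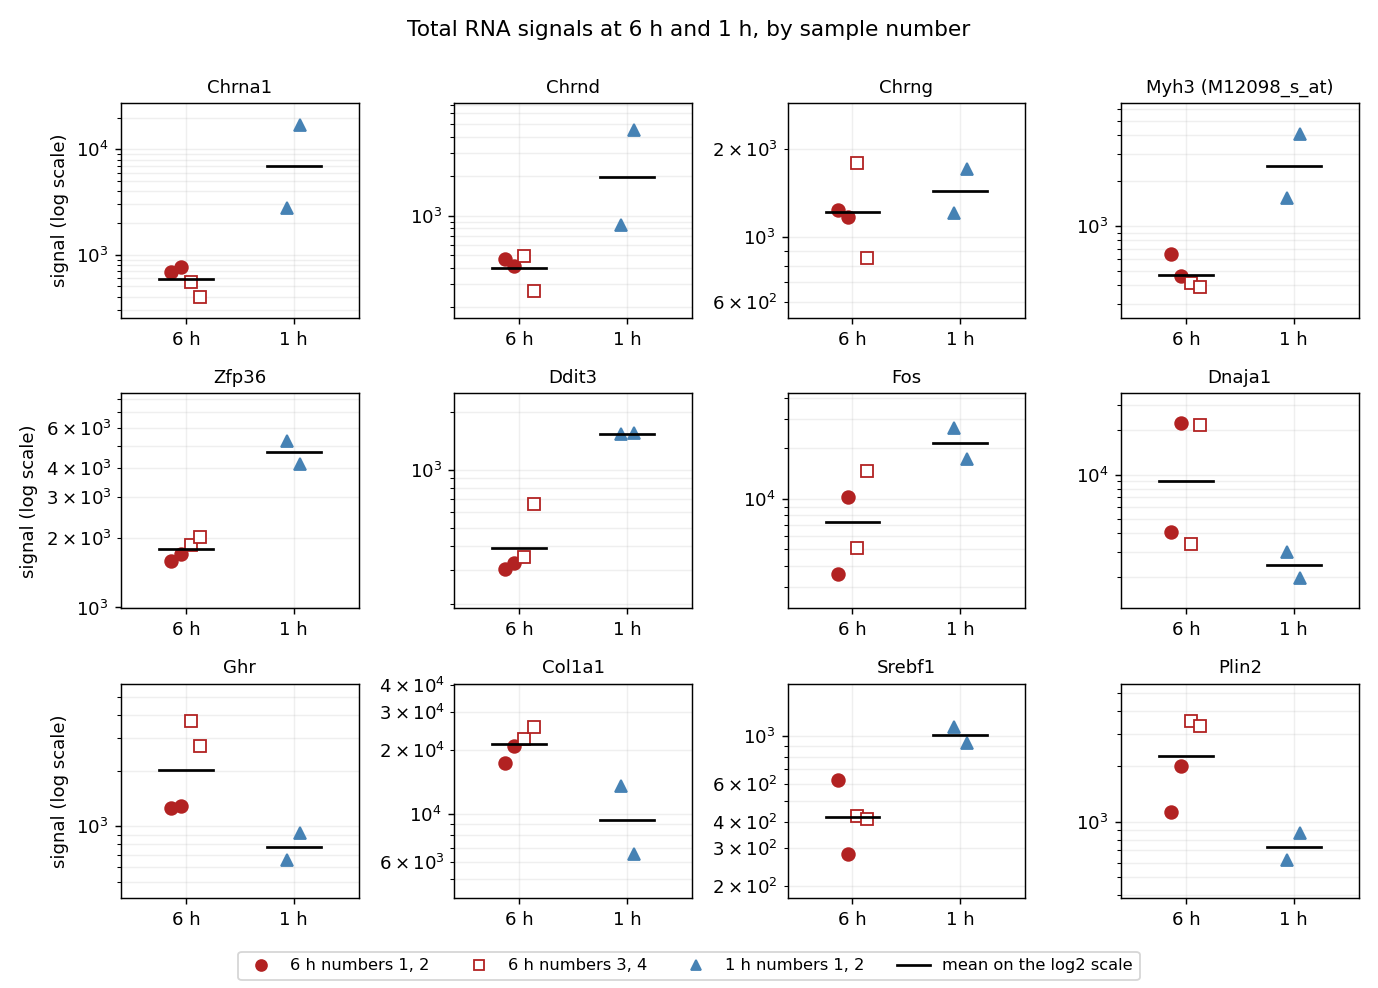
Signal on a log scale in each total RNA number, 6 h (numbers 1 and 2 filled circles, 3 and 4 open squares) left of 1 h (triangles), for 11 genes by their brightest probe set and for Myh3 by M12098_s_at. Black lines are means on the log2 scale, and the acetylcholine receptor genes Chrna1 and Chrnd have a wide gap between the 1 h numbers.

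Immediate early transcription factors were mostly lower at 6 h among those whose groups were apart, with no member passing. Of 37 tested, 8 had every 6 h number below both 1 h numbers and 4 had every one above. Zfp36, which speeds the decay of cytokine messengers, had 1590.4, 1708, 1866 and 2028 at 6 h, against 5273 and 4190.1 at 1 h. That was 2.63-fold lower at a log2 difference of -1.39 (SE 0.37, adjusted p = 0.425), with little spread in either group. Fos, the AP-1 subunit, had 3583, 10331, 5136 and 14743 at 6 h, against 26524 and 17227 at 1 h, and its 3 probe sets were all below 0, from -2.27 to -1.55. Klf4, a zinc finger factor of the early wave, had 680.3, 765, 249 and 279 at 6 h, against 1367 and 879.7 at 1 h.

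The orphan nuclear receptor Nr4a1 had 5620.3, 7402, 10421 and 10656 at 6 h, against 16666 and 13842 at 1 h. Nr4a3, its relative, had 338, 341, 466 and 543 at 6 h, against 959 and 631 at 1 h. The Notch target Hes1 had 591, 642, 756 and 937 at 6 h, against 1195 and 1208 at 1 h. By these brightest probe sets numbers 3 and 4 stood nearer to 1 h than numbers 1 and 2 did. Another probe set of Nr4a1, U17254_at, was at -1.31 in numbers 1 and 2 and -2.34 in numbers 3 and 4. Another of Nr4a3, X86003_at, was at -2.24 and -2.58, so in both genes the order of the sets depends on the probe set. The remaining Nr4a3 probe set, rc_AI145834_at, was at 0.19 and 0.17, with the groups overlapping. Klf10 and Id1 were also below in every number by their brightest probe sets, at log2 differences of -0.65 (SE 0.49) and -0.76 (SE 0.36). The other Id1 probe set was at 0.11.

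Other early genes had overlapping groups or lay above 1 h. Egr1 had 4184, 25868, 21398 and 38828 at 6 h, against 32682 and 24819 at 1 h, and overlapped widely, with its 4 probe sets all below 0, from -1.55 to -0.72. Fosl1, an AP-1 subunit of the later wave, was at the floor on all 4 arrays at 1 h and had, at 6 h, the floor in number 1 and 606, 371 and 768 in numbers 2 to 4. It did not pass (adjusted p = 0.597). Klf9, a glucocorticoid-responsive factor, had 7084, 5826, 13325 and 11773 at 6 h, against 5268 and 5368 at 1 h. Id2, Irf1 and Tsc22d1 were above 1 h in every 6 h number, at log2 differences of 0.37 (SE 0.37), 0.57 (SE 0.27) and 0.48 (SE 0.37). The list median was 0.00 with all 4 numbers at 6 h, -0.29 with numbers 1 and 2 and 0.02 with numbers 3 and 4.

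Junb, another AP-1 subunit, showed how the sets parted. Its brightest probe set had 481 and 655 in 6 h numbers 1 and 2 and 2098 and 2102 in numbers 3 and 4, against 1994 and 1723 at 1 h. Its other probe set, X54686cds_at, had 428, 501, 543 and 925 at 6 h, against 1703 and 1353 at 1 h, and passed in numbers 1 and 2 (-1.71, adjusted p = 0.0357) and in numbers 3 and 4 (-1.10, adjusted p = 0.0285). In the fit that left out 6 h numbers 3 and 4 the same difference of -1.71 did not pass (adjusted p = 0.0621). Ddit3 (CHOP), a factor of the unfolded protein response, had 306, 329, 351 and 667 at 6 h, against 1524 and 1553 at 1 h. That was 3.92-fold lower (log2 difference -1.97, SE 0.51) and did not pass (adjusted p = 0.409). The list of 17 unfolded protein response genes tested had a median of 0.00, with 0 called.

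No gene of the chaperone list passed over all 4 numbers. Of 20 genes of heat shock proteins and cochaperones tested, 5 had every 6 h number above both 1 h numbers, and the list median was 0.33. It was 0.37 in numbers 1 and 2 and 0.60 in numbers 3 and 4, against 0.00 and 0.12 over all genes. Dnaja1, an Hsp40 cochaperone of Hsp70, had 4079, 22312, 3373 and 21836 at 6 h, against 2983 and 1979 at 1 h. Numbers 2 and 4 were the high ones, and the log2 difference of 1.90 (SE 0.67) did not pass (adjusted p = 0.553). Hsph1, a nucleotide exchange factor of Hsp70, was also highest in numbers 2 and 4, with 1763, 4908, 1805 and 6290.5 at 6 h, against 1291 and 1744 at 1 h. By the other Hsph1 probe set the groups overlapped, with 1.69 in numbers 1 and 2 and -0.73 in numbers 3 and 4.

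The mitochondrial cochaperonin Hspe1 had 6954, 12529, 14784 and 19733 at 6 h, against 6632 and 6371 at 1 h. Chordc1, an Hsp90 partner, had 974, 1478, 1236 and 1325 at 6 h, against 758 and 760.4 at 1 h. Both passed in 6 h numbers 3 and 4 alone, Hspe1 at 1.39 (adjusted p = 0.0241) and Chordc1 at 0.75 (adjusted p = 0.0280). The other Hspe1 probe set was at 0.10 in numbers 3 and 4. Fkbp4, an Hsp90 cochaperone, was above 1 h in every number by its brightest probe set (log2 difference 0.33, SE 0.22), and its other 2 probe sets were at -0.81 and -0.43. St13, an Hsp70 cochaperone of the same list, was called lower in numbers 3 and 4 (-2.15, adjusted p = 0.00941).

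Ligands and receptors for growth signals lay on both sides of 0, and 0 of 35 genes of growth hormone, IGF and activin signalling passed. The growth hormone receptor Ghr had 1260.2, 1279, 3691 and 2719.5 at 6 h, against 653 and 920.0 at 1 h. By this brightest probe set the log2 difference was 1.37 (SE 0.39, adjusted p = 0.472), and another of its 3 probe sets was at -1.13. The kinase Jak2, which Ghr activates, had 167, 206, 184 and the floor at 6 h, against 323 and 297 at 1 h, at -0.87 (SE 0.23). Another Jak2 probe set was at 0.11. Cish, a feedback inhibitor of the growth hormone receptor, had 407, 387, 154 and the floor at 6 h, against 939 and 467 at 1 h, at -1.48 (SE 0.45). Socs3, a related inhibitor, overlapped between the times. The IGF carrier Igfbp3 had 594, 325, 368 and 361 at 6 h, against 234 and 171 at 1 h (log2 difference 1.00, SE 0.35, adjusted p = 0.553). By the other Igfbp3 probe set the groups overlapped (0.19, SE 0.34). In this list 3 genes had every 6 h number above and 5 every number below, of 35.

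Among growth factor genes outside that list, Fgf1 had 541, 1356, 609 and 683 at 6 h, against 368 and 270.3 at 1 h. Fgfr2, which encodes an FGF receptor, had 366, 248, 267 and 280.2 at 6 h, against 129.5 and 150.4 at 1 h, both close to the floor. The EGF receptor ligand Hbegf had 421, 2635, 1183 and 1302 at 6 h, against 415 and 563 at 1 h, and number 1 kept it from separating. The small GTPase Rhob had 2126, 2273, 468 and 1896 at 6 h, against 3901 and 3060.1 at 1 h. Fgf1 was 2.36-fold and Fgfr2 2.06-fold higher at 6 h, both at an adjusted p of 0.409.

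None of 3 receptors of inflammation and cell migration passed. Plaur, the urokinase receptor, had 662, 1648, 338 and 1210.3 at 6 h, against 146 and 467 at 1 h, with number 3 below the higher 1 h value. Cd44, the hyaluronan receptor, had 339, 1079, 451 and 473 at 6 h, against 178 and 262 at 1 h. Its other probe set lay at the floor. The interleukin 6 receptor Il6r had 733, 945, 482 and 993 at 6 h, against 448 and 349 at 1 h. Their log2 differences were 1.65 (SE 0.53), 1.29 (SE 0.40) and 0.94 (SE 0.36), with adjusted p-values of 0.522, 0.500 and 0.597. Of 36 chemokine, cytokine and NF-kappa B genes tested, 6 had every 6 h number above both 1 h numbers and 1 every number below.

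No tested marker of blood or immune cells passed over all 4 numbers. Of 29 macrophage markers 16 were tested and 0 passed, and their summed signal was 10746 to 17275 at 6 h, against 12390 and 12875 at 1 h. C1qb, a complement subunit made by macrophages, had 1452, 1091, 978 and 1551 at 6 h, against 689 and 831 at 1 h. By the other C1qb probe set the groups overlapped (log2 difference 0.65, SE 0.54). Lgals3 and Fcgr2b were also above 1 h in every number, and Itgam was at the floor in all 6. Of 23 neutrophil and mast cell markers 10 were tested, with sums of 3481 to 4953 at 6 h, against 3049 and 3586 at 1 h. Of 14 red cell markers 7 were tested, with sums of 39116, 41399, 63546 and 50620 at 6 h, against 41139 and 41168 at 1 h. The part of these cells in the differences above was not tested.

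Srebf1, Acaca, Acacb, Acsl4 and Scd, which serve the making and activation of fatty acids, had lower signals at 6 h in every number, and none passed. Srebf1, the factor that switches on fatty acid synthesis, had 621, 282, 425 and 413 at 6 h, against 1093 and 930.0 at 1 h (log2 difference -1.27, SE 0.36, adjusted p = 0.472). Acaca and Acacb encode acetyl-CoA carboxylases, whose product malonyl-CoA holds back fat burning. Acaca had 202, 209, 147 and 165 at 6 h, against 303 and 269 at 1 h. Acacb had 492, 256 and, in numbers 3 and 4, the floor at 6 h, against 548 and 602 at 1 h. Acsl4, which activates long-chain fatty acids, had 307, 336, 361 and 189.8 at 6 h, against 624 and 813 at 1 h, at -1.30 (SE 0.32). The desaturase Scd was at -0.91 (SE 0.55). In each of these 5 genes the groups were apart, but they were named with their values known, so this is not a result of its own. Slc25a1, a citrate carrier that serves the same synthesis, went the other way, at 0.84 (SE 0.24, adjusted p = 0.472 by limma).

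A lipid droplet gene lay on the other side of 0. Plin2, the coat protein of lipid droplets, had 1130.3, 2011, 3509 and 3325 at 6 h, against 618 and 868 at 1 h. By this brightest probe set the log2 difference was 1.63 (SE 0.59, adjusted p = 0.570). The other Plin2 probe set was at 0.09 (SE 0.27), with the groups overlapping. Pdk2, which restrains entry of pyruvate into mitochondria, had 7814, 7408, 12528 and 11947 at 6 h, against 7189.5 and 6646 at 1 h. The other Pdk2 probe set was at -0.33. Of 46 genes of fuel switching and lipid uptake tested, 0 passed, 3 had every 6 h number above and 7 every number below, and the median was -0.03.

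Extracellular matrix genes had a median above 0 at 6 h, further above it in numbers 1 and 2 than in numbers 3 and 4, with no member passing. The alpha 1 chain of type I collagen, Col1a1, had 17325, 20806, 22405 and 25357 at 6 h, against 13535 and 6518 at 1 h (log2 difference 1.18, SE 0.48, adjusted p = 0.597). Of its 4 probe sets 3 were above 0. The partner chain Col1a2 had 17009 and 13835 in 6 h numbers 1 and 2 and 2403 and 6848 in numbers 3 and 4, against 7338 and 2732 at 1 h. Col1a2 differed between the sets (-1.92, adjusted p = 0.0248) and did not pass between the times (0.82, SE 0.68). Mgp, an inhibitor of calcification, had 6813, 6420.1, 8177 and 11340.2 at 6 h, against 4948 and 4453 at 1 h.

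Mmp2, a gelatinase, and Dcn, a collagen-binding proteoglycan, were above 1 h in every number, by 0.42 (SE 0.26) and 0.79 (SE 0.49). Of the 4 Dcn probe sets, 2 were below 0, at -0.46 and -0.01. Ccn1, a matricellular early gene, had 191, 1187, 222 and 493 at 6 h, against 1198 and 1281 at 1 h, and Timp3, a metalloproteinase inhibitor, 479, 383, 377 and 287 at 6 h, against 674 and 598 at 1 h. Of 41 matrix genes tested, 0 passed, 7 had every 6 h number above and 2 every number below. The list median was 0.29 over all 4 numbers, 0.55 in numbers 1 and 2 and 0.08 in numbers 3 and 4.

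**Figure D3:**
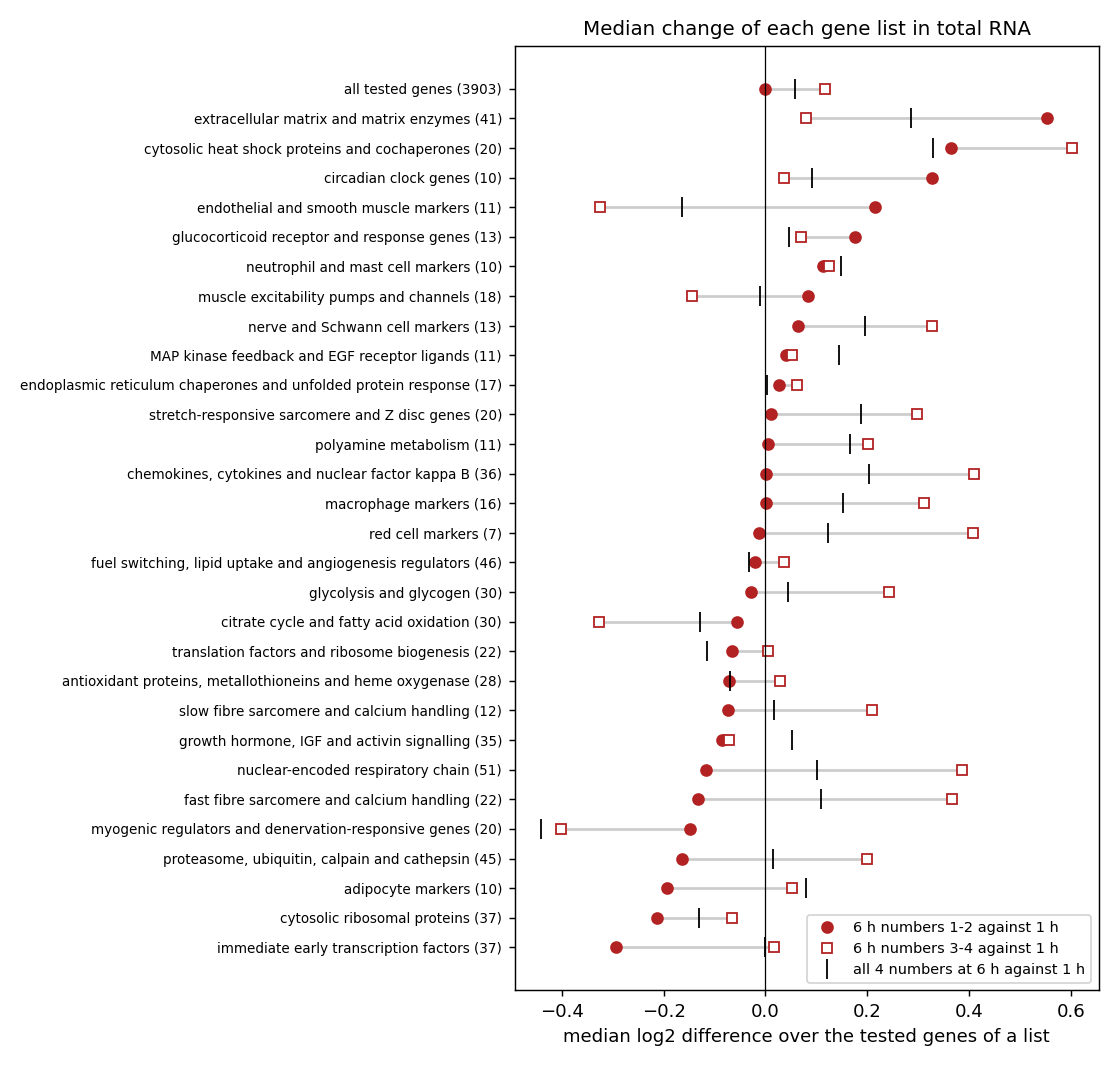
Median log2 difference, 6 h minus 1 h, over the tested genes of each list (number tested in brackets), for 6 h numbers 1 and 2 (filled), 3 and 4 (open) and all 4 (bar), with all 3903 genes at the top. Matrix genes are at 0.55 in numbers 1 and 2 and 0.08 in numbers 3 and 4, and chaperones are above 0.3 in all 3.

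Other lists had no gene past the threshold over all 4 numbers, and several had medians on opposite sides of 0 in the 6 h sets. Over 51 nuclear-encoded respiratory chain genes the median was 0.10 with all 4 numbers, -0.12 in numbers 1 and 2 (0 called) and 0.39 in numbers 3 and 4 (9 called higher and 3 lower). Over 22 fast fibre genes it was 0.11, -0.13 and 0.37 in the same order, over 12 slow fibre genes 0.02, -0.07 and 0.21, over 45 genes of protein breakdown 0.02, -0.16 and 0.20, and over 30 of glycolysis and glycogen 0.04, -0.03 and 0.24. It was below 0 in each for 30 genes of the citrate cycle and fatty acid oxidation (-0.13, -0.06 and -0.33) and 37 cytosolic ribosomal proteins (-0.13, -0.21 and -0.07), and above 0 in each for 10 clock genes (0.09, 0.33 and 0.04). Over all genes it was 0.06, 0.00 and 0.12. Of all 3903 genes, 2 were called higher and 3 lower in numbers 1 and 2, and 197 higher and 267 lower in numbers 3 and 4. In 0 of the clock genes and 0 of the 11 polyamine genes were the groups apart.

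Since only Chrna1 passed among genes, the genes of smallest p were listed up to 15 a side, and none of these others passed. Higher at 6 h in order of p were Maob, Fgfr2, Stard8, Fgf1, Tcn2, Ghr, Slc25a1, Hmga1, Foxs1, Ptgis, Lpar1, Man2b1, Aopep, Pelo and LOC102548459. Monoamine oxidase B (Maob) had 212, 349, 249 and 271 at 6 h, against 163 and 133 at 1 h (log2 difference 0.85, SE 0.18, adjusted p = 0.239). Tcn2, the cobalamin carrier, had 924, 784, 1510.0 and 1314 at 6 h, against 384 and 566 at 1 h. Pelo, a ribosome rescue factor, had 758, 965, 939 and 1801 at 6 h, against 396 and 457 at 1 h, 2.48-fold higher at an adjusted p of 0.482. In all 15 every 6 h number lay above both 1 h numbers by the brightest probe set. Choice by smallest p from the same values favours such genes, so this is not a result of its own. By the other Aopep probe sets the groups overlapped, at 0.21 and 0.11. In Maob, Fgfr2, Stard8, Foxs1, Ptgis, Lpar1 and LOC102548459 some 1 h arrays were at the floor.

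Lower at 6 h after Chrna1 were F3, Pik3c3, Chrnd, Acsl4, Ddit3, Eloa, Jak2, St3gal5, Zfp36, Plcb2, Mkrn2, Calm2, Srebf1 and Nedd4. Tissue factor (F3), which starts coagulation, had 177, 152, 163 and the floor at 6 h, against 271 and 242 at 1 h (log2 difference -0.73, SE 0.15, adjusted p = 0.145). Calm2, a calmodulin gene, had 2813, 2712, 1419 and 2683 at 6 h, against 4757 and 4811 at 1 h. Nedd4, a ubiquitin ligase, had 1508, 1742, 538 and 626 at 6 h, against 2449 and 3469.5 at 1 h, so that numbers 3 and 4 carried most of its log2 difference of -1.59 (SE 0.46). Without these 2 numbers Nedd4 was at -0.85 (adjusted p = 0.543).

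A group of 10 unnamed probe sets, with identifiers that begin with M13100cds or X05472cds, lay above 1 h. In all 10 every 6 h number lay above both 1 h numbers, with log2 differences of 1.52 to 5.44. Probe set X05472cds#2_at had 6647, 7654, 41484 and 3504 at 6 h, against 259.6 and 175 at 1 h. It did not pass (5.44, SE 1.08, adjusted p = 0.145). M13100cds#1_at had 15727, 15302, 44959.5 and 16658 at 6 h, against 5372 and 4871 at 1 h, and 4918 to 18324 over the polysomal numbers. These identifiers were chosen after their values were seen, and no gene name was given to them.

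Set apart, 6 h numbers 1 and 2 against 1 h gave 16 calls of 6707, 0.239 percent, 11 higher and 5 lower. By brightest probe set 5 genes passed (0.128 percent). Chrna1 fell by 3.24 on the log2 scale (adjusted p = 0.0357). P2ry2, a receptor for extracellular nucleotides, had 325 and 314 at 6 h, against 781 and 874 at 1 h, and Tmem205, a membrane protein, 419 and 334 at 6 h, against 826 and 942 at 1 h. Both fell, by 1.37 (adjusted p = 0.0357) and 1.24 (adjusted p = 0.0315). Dlg1, a scaffold protein, had 313 and 352 at 6 h, against 167 and 188 at 1 h, and Mcf2l 345 and 268 at 6 h, against 139 and 166 at 1 h. Both rose, by 0.91 and 1.00 (adjusted p = 0.0357 each), but the other Dlg1 probe set, rc_AA891297_at, was at -0.45.

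In P2ry2, Tmem205, Dlg1 and Mcf2l, numbers 3 and 4 did not follow. P2ry2 had 851 and 871 there and Tmem205 763 and 817, both near the 1 h values, and Dlg1 had 140.2 and the floor. Of the 16 calls, 3 were also called in the same direction in numbers 3 and 4 against 1 h, and 13 differed between the sets. The first of these tests reuses the 1 h numbers and the second reuses 6 h numbers 1 and 2, so neither overlap is independent of the calls. Next by p in numbers 1 and 2, not passing, were Mapre1, Rab4a and Mal upward and Nup62 and Junb downward (adjusted p = 0.0807 to 0.145). Mal, a myelin and membrane raft protein, had 392 and 426 at 6 h, against 144 and 193 at 1 h.

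6 h numbers 3 and 4 against 1 h gave 943 calls, 14.1 percent, with 308 higher and 635 lower. With the 75th percentile scaling it was 413 higher and 551 lower. Among genes read by their brightest probe set the largest rise that passed was that of Rrad, a small GTPase that restrains calcium channels, with 30898 and 20302 at 6 h, against 1589 and 1221 at 1 h (log2 difference 4.17, SE 1.15, adjusted p = 0.0312). In numbers 1 and 2 Rrad had 983 and 3899.9. The glucose transporter Slc2a1 had 1298 and 1523 in numbers 3 and 4, against 195 and 240.3 at 1 h, and rose by 2.70 (adjusted p = 0.0120). Follistatin (Fst), which binds activin and myostatin, had 2175 and 2402, against 215 and 804 at 1 h, and rose by 2.46 (adjusted p = 0.0351). Nipsnap2 and Sart1 also rose, by 2.38 and 2.30. By another probe set Sart1 (AB014722_at) was at -0.48 in numbers 3 and 4. The other Slc2a1 probe set, M13979_at, lay at the floor and so tells nothing of a change.

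Among genes above the floor on some 6 h array, those of largest fall in numbers 3 and 4 were bright in numbers 1 and 2 and at 1 h. Mybpc1, slow myosin-binding protein C, had 237 and 3883 in numbers 3 and 4, against 26012 and 19402 at 1 h and 20475 and 22515 in 6 h numbers 1 and 2. Vdac1, the mitochondrial outer membrane channel, was at the floor in number 3 and had 1639 in number 4, against 10857 and 9856 at 1 h. Gpd1, glycerol-3-phosphate dehydrogenase, had 138 and 135, against 3588 and 2532 at 1 h. Their log2 differences were -4.55, -4.49 and -4.47 (adjusted p = 0.00431, 0.00252 and 9.11e-05). Cops7a fell by 4.11, and Pdk4, at the floor in numbers 3 and 4, fell by 4.10 (adjusted p = 2.3e-05 and 0.000592).

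Numbers 3 and 4 differed from numbers 1 and 2 of the same time at 1158 probe sets, 17.3 percent, 375 higher and 783 lower. With quantile normalization the split was 684 higher and 712 lower. This is more calls than for either set against 1 h. Pdk4, which turns fibres from glucose to fat, was at the floor in numbers 3 and 4, against 7902 and 4369 in numbers 1 and 2, a log2 difference of -5.50 (adjusted p = 5.73e-05). The size of this difference depends on the floor, to which numbers 3 and 4 were raised. Pcmt1, a protein repair enzyme, had the floor and 159, against 3064 and 2669.9 in numbers 1 and 2. Acta1, skeletal alpha actin, had 39349 and 13764 in numbers 3 and 4, against 1249.9 and 1347 in numbers 1 and 2, a difference of 4.16 (adjusted p = 0.00442). The ubiquitin ligase Trim63 had 27475 and 10654 in numbers 3 and 4, against 2799 and 3279 in numbers 1 and 2, and differed by 2.50 (adjusted p = 0.00146).

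Of the 1158 probe sets that differed between the 6 h sets, 352 (30.4 percent) were also among the 577 (8.6 percent of those tested) called between polysomal and total RNA at 1 h, of which they make up 61.0 percent, on other arrays. All 352 had the same direction, and over all probe sets the differences correlated at 0.571. Polysomal RNA at 6 h gave 0 calls between its own numbers 3 and 4 and numbers 1 and 2, and polysomal control muscle 48, 0.716 percent. What sets total RNA numbers 3 and 4 apart was not tested further, and it cannot be told apart from a difference in the response of those muscles.

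**Figure D4:**
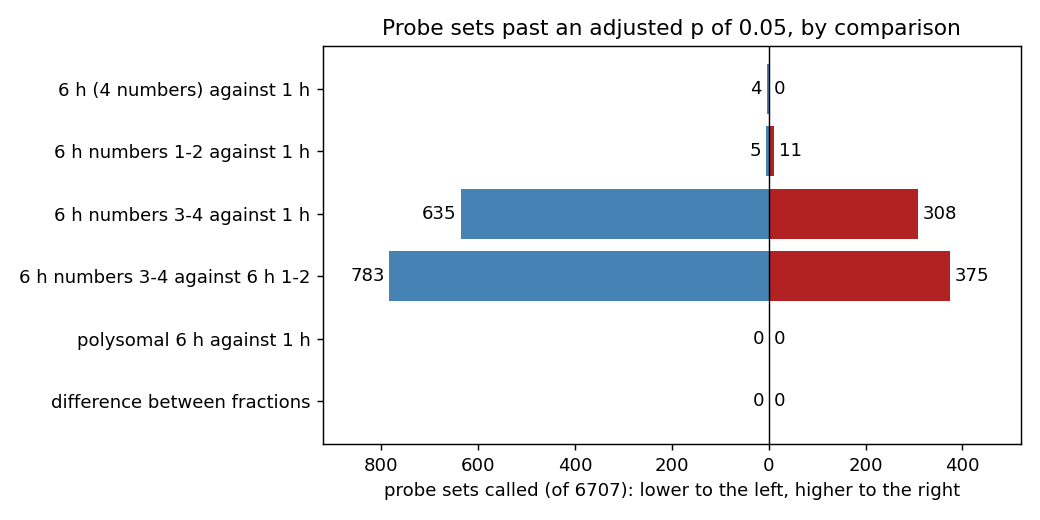
Number of probe sets past an adjusted p of 0.05 of 6707, higher to the right and lower to the left, in each comparison named. The 4 numbers at 6 h gave 0 higher and 4 lower, numbers 3 and 4 alone 308 and 635, and the difference between the 6 h sets 375 and 783.

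With 6 h numbers 3 and 4 left out, the count was 25, 0.373 percent, with 22 higher and 3 lower. Of those 25, 20 had a mean signal under 300 at 1 h, and 1 of the 4 calls made with all numbers was among them. With both 6 h sets as groups of their own and their mean set against 1 h, 133 passed, 1.98 percent, 19 higher and 114 lower. That count held all 4, and 128 of the 133 were also called in numbers 3 and 4 against 1 h and 7 in numbers 1 and 2. The mean contains both of these comparisons, so the overlaps are not independent of it.

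In polysomal RNA, 6 h against 1 h gave 0 calls of 6707 by limma, 0.0 percent, with 366 at an unadjusted p under 0.05. Chrna1 had 789.8, 744, 444 and 401 on polysomes at 6 h, against 467 and 398 at 1 h, a log2 difference of 0.40 (SE 0.54). Chrnd was at 0.03 (SE 0.50). Pelo had 2750.1, 2130.4, 2082 and 2681 on polysomes at 6 h, against 324 and 1103 at 1 h, and was not called (adjusted p = 0.236). Runx1, a factor that denervated fibres induce, had 4212, 2831, 5303 and 4864, against 1077 and 994 at 1 h, at 2.02 (SE 0.49). Hbegf was at 2.17 (SE 0.57). Ppp2r3a and Tars1 were next upward, and Phactr4, Tuba4a, Vezf1, Nek7 and Xpo7 had the smallest p downward, none passing.

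Whether the change between the times differed between fractions was tested directly, and 0 probe sets passed (0.0 percent), with 372 at an unadjusted p under 0.05. Chrna1 came nearest among genes, with -3.96 (SE 0.77, adjusted p = 0.417). Chrnd was at -2.32 (SE 0.70), Ruvbl1 at -1.41, Rbm39 at -1.14 and Pik3c3 at -0.66. Upward were Tuba4a (1.17), Pcsk2 (1.07), Ghr (2.04), Cp (1.29) and Phactr4 (1.42). For Ghr, total RNA was at 1.37 (SE 0.39) and polysomal RNA at -0.67 (SE 0.39). Plin2, Dnaja1, Fosl1 and Plaur, by contrast, had differences above 0 in both fractions by their brightest probe sets, and none passed in either. Their polysomal differences were 2.11 (SE 0.59), 1.35 (SE 0.67), 1.49 (SE 0.60) and 1.22 (SE 0.53). Without 6 h numbers 3 and 4 of total RNA the test between fractions gave 2 calls.

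**Figure D5:**
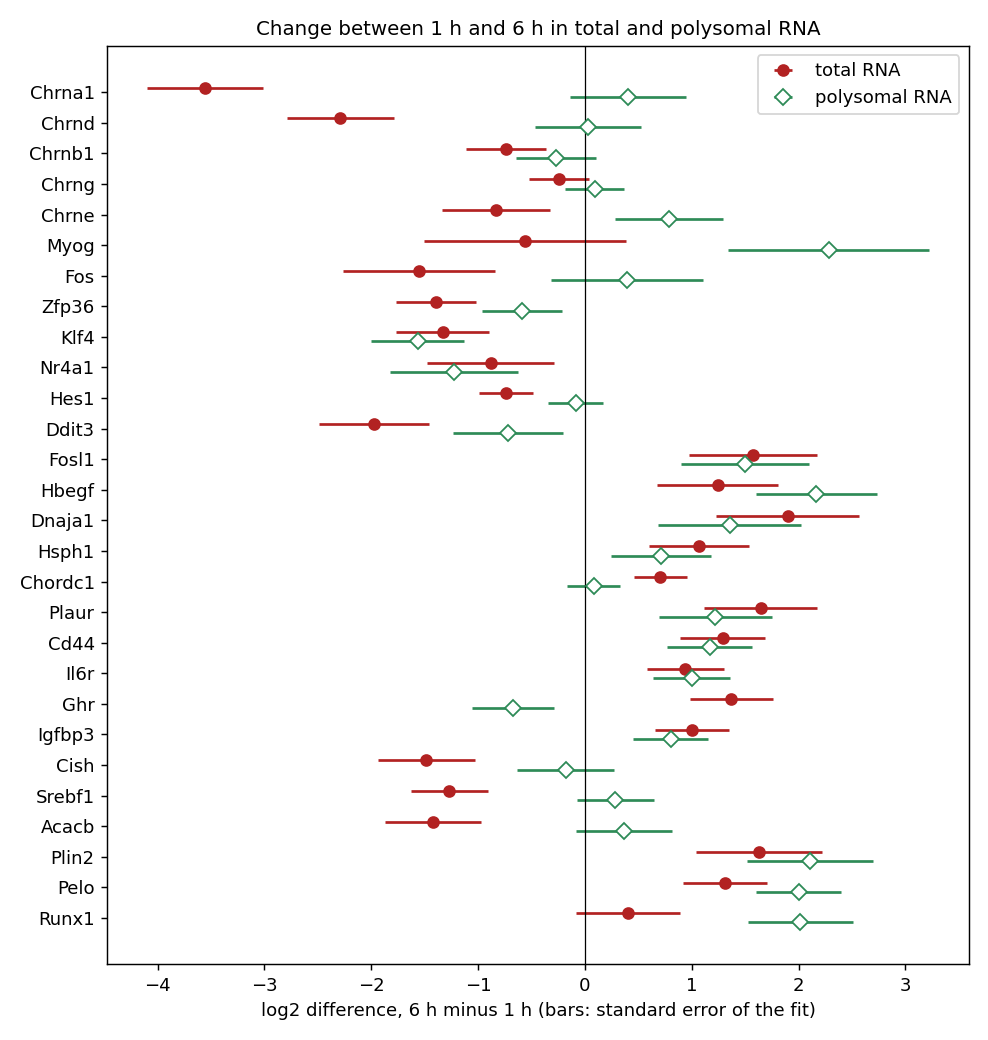
Log2 difference, 6 h minus 1 h, of 28 genes by their brightest probe sets in total RNA (circles) and polysomal RNA (diamonds). Bars are the standard error of the fit. Chrna1 and Chrnd are at -3.56 and -2.29 in total RNA and at 0.40 and 0.03 in polysomal RNA, whereas Plin2, Plaur and Cd44 are above 0 in both.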

How the data were processed

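The authors deposited array intensity signals on a linear scale, already scaled (2% trimmed means of 801.1 to 801.8 on the 12 total RNA arrays, medians of 177 to 266). Software, background correction and scaling target: not given in the sources used here. From 8799 probe sets, 59 controls were left out. Signals under the 40th percentile were set to it (129.5), log2 was taken, the 2 arrays of a number were averaged, and 6707 probe sets, each over the floor on 4 or more of 36 arrays, were tested with limma 3.58.1 in R 4.3.3. One model over 6 groups had 12 residual degrees of freedom; the 6 h sets were fitted in a model of groups with the 6 h and control sets apart, with 9. P-values are two-sided with Benjamini-Hochberg adjustment over all 6707, threshold 0.05. An exact permutation test of 4 against 2 numbers cannot go below p = 0.0667. The script was tested on simulated data.

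Symbols came from the platform annotation, updated through Entrez identifiers: 7006 of 8740 probe sets had 1 symbol, 308 several and 1426 none. Each of 3903 genes was read by its brightest probe set. Genes named in the text are the 15 of largest change or smallest p in each direction, 5 for the further comparisons, and members of the gene lists. The comparison and the lists were chosen with earlier results of these data known. The number of arrays limits the precision.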

Additional observations from a re-analysis of the deposited data

Results flagged for a closer look

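In groups of 4, a sample was picked out where its gap to the nearest other took up more of the group's range than Dixon's criterion allows. Of 170 such tests 8 picked out a sample, and chance gives about 1 in 20. Among the 6 h total RNA numbers, number 3 was lowest for Rhob (468, against 1896 to 2273 in the others, ratio 0.885) and for Calm2 (1419, against 2683 to 2813, ratio 0.931), and highest for M13100cds#1_at (44960, against 15302 to 16658, ratio 0.921). Number 1 was highest for Pik3c3 (158, with the other 3 numbers at the floor, ratio 1).

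Among the 6 h polysomal numbers, number 1 was lowest for Ghr (1152, against 1701 to 1777, ratio 0.900) and highest for F3 (132, with the other 3 at the floor, ratio 1). Number 2 was highest for Mkrn2 (206, against 190.9 to 191.5 in the others, ratio 0.960) and for the Myh3 probe set K03467_s_at (195, with the other 3 at the floor, ratio 1). The ratios of 1 come from values at the floor, and the Pik3c3, F3 and Mkrn2 gaps are small in signal.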

How the results depend on the processing

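The count of calls between 6 h and 1 h total RNA, 4 of 6707, ranged from 0 to 20 over the planned settings. It was 0 with only the 6 total RNA numbers, 0 with the replicate block (same-numbered 6 h and 1 h samples correlated at -0.0839 and 0.0512, and same-numbered total and polysomal 6 h samples at 0.0726, 0.248, 0.162 and 0.218, so not every pair deviated together), 0 with the floor at the 20th percentile, 1 without a floor, 11 without the filter on dim probe sets and 20 with single arrays and the number as a random block. Leaving out one replicate gave 1 to 15: 15 without 1 h number 1, 1 without 1 h number 2 and without 6 h numbers 2, 3 or 4, and 6 without 6 h number 1. Added after the data were seen, it was 25 without 6 h numbers 3 and 4 and 133 with both 6 h sets as groups of their own. The 4 calls of the reported fit were all kept with quantile normalization, 75th percentile scaling and the random block of fractions. The polysomal count was 1 with the floor at the 60th percentile, and the test between fractions gave 2 calls without 6 h numbers 3 and 4. The counts of the 6 h sets stayed within 1.5 times under the 3 settings tried. Chrna1 had an adjusted p of 1.36e-06 to 0.942 over 20 settings and passed in 12.

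Over the named probe sets 4 of 1849 values changed direction: Chrng ran from -0.49 to 0.0100 and Myog from -1.28 to 0.15 when 1 replicate was left out (above 0 without 1 h number 2), Myog was at 0.26 with the block, and Chrnd in polysomal RNA at -0.16 with the floor at the 60th percentile. 1778 kept direction and call. 35 lost the call, among them Mcf2l (0.82) and Rrad between the 6 h sets (3.40) with quantile normalization, and 32 gained it. The cause was not tested.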
